A study of Mus musculus with 6 samples.

Results

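The genes described here are 9 that mark blood monocytes in mice: Ly6c2, Chil3, F13a1, Ms4a6c, Fn1, Csf1r, Lyz2, Ace and Treml4. They form a list of classical and patrolling monocyte genes and were looked up in the table by symbol. All 9 were found among the 56413 symbols of the count table, and all 9 were among the 18716 genes abundant enough to test. The study concerns Top3b, which encodes topoisomerase III-beta, in immune regulation and tumour formation. Total RNA depleted of ribosomal RNA was sequenced from fresh mouse splenocytes, the mixed cells of the whole spleen, in 3 libraries labelled Wild-type (WT) and 3 labelled Top3b-KO (the knockout). No treatment or time course is named, and the labels used here give no strain, age or sex, no design of the knockout allele, and no word on whether each library came from its own animal. The p-values therefore measure the spread between these libraries, which may be technical.

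Monocytes are phagocytes that carry the receptor CSF1R, leave the bone marrow and circulate in the blood, and the spleen holds a reserve of them. Classical monocytes carry the surface protein Ly6C, enter inflamed tissue through the chemokine receptor CCR2 and can become macrophages. Patrolling monocytes have little Ly6C, depend on the nuclear receptor NR4A1 and crawl along the vessel wall. In RNA from whole spleen these cells are a minority among B and T cells, so their genes report on a small part of each library, and fewer monocytes or less RNA per monocyte cannot be told apart.

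The libraries held between 9941014 and 25473404 counts, fewest in Top3b-KO replicate 3 and most in Top3b-KO replicate 2. Levels are given as CPM, the counts of a gene per 1e+06 counts of its library, scaled for depth and composition by TMM factors. Top3b itself stood at 95.05, 86.9 and 91.0 CPM in WT and 51.5, 48.2 and 49.7 CPM in the knockout, with no overlap. The knockout mean was 0.547 of the WT mean, and which part of the gene the remaining counts cover was not examined, so the total separates the groups but does not show the deletion itself. Of the 18716 genes tested, 0.0107% passed at 0.05 (edgeR's quasi-likelihood F test, p-values adjusted by Benjamini and Hochberg's method).

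None of the 9 monocyte genes passed that test, and their adjusted p ran from 0.915 to 0.998 by edgeR. Across all 9, the WT and Top3b-KO means lay within 1.2-fold of each other. Their median log2 fold change (Top3b-KO minus WT) was -0.014, with 3 genes above 0 and 6 below, beside a median of -0.0029 over all tested genes. At an unadjusted p under 0.05, 0 of the 9 were called by edgeR, against 5.52% of all tested genes. In 0 of the 9 did the 3 libraries of one genotype lie wholly above or below those of the other, whereas the knockout lay above in 5.39% and below in 5.63% of all tested genes. DESeq2 and limma-voom also called 0 of the 9. The raw counts behind these values ran from 194 for Treml4 to 10620 for Lyz2 in a single library.

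**Figure D1:**
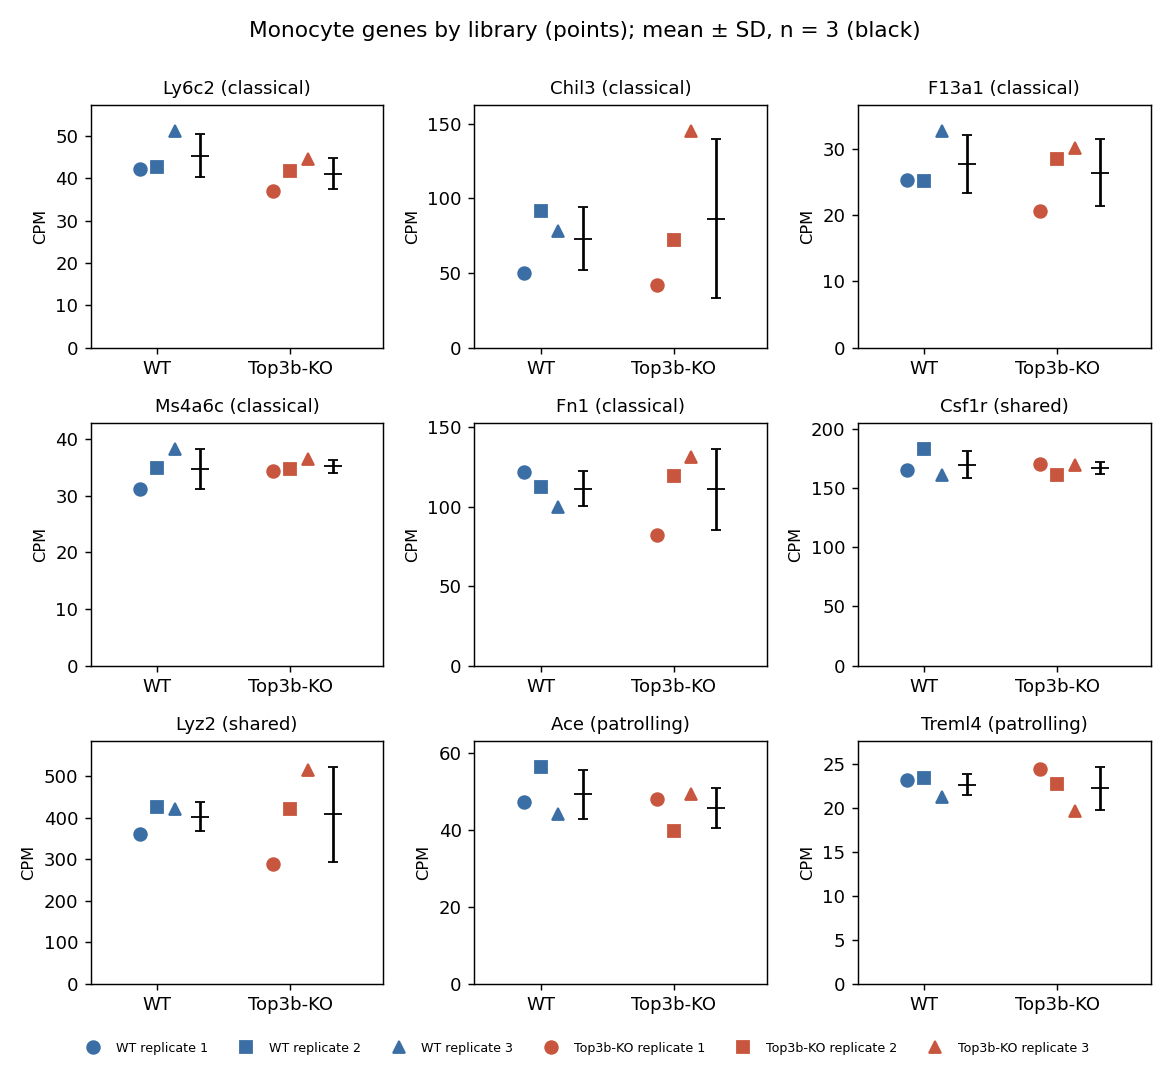
Level in CPM (linear axis from 0) of each of the 9 genes in the 3 WT and 3 Top3b-KO libraries, with marker shape for replicate number and the mean ± SD (n = 3) in black. The genotypes overlap in every panel, and the Top3b-KO libraries span 41.7 to 145 CPM for Chil3 but 161 to 170 CPM for Csf1r.

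Among the classical genes, Ly6c2 encodes the Ly6C antigen by which these cells are sorted. It stood at 42.2, 42.6 and 51.2 CPM in WT and 37.1, 41.8 and 44.5 CPM in the knockout. WT replicate 3 was the highest library and Top3b-KO replicate 1 the lowest, and the ranges overlapped. The log2 fold change was -0.15 (SE 0.093, 95% interval -0.34 to 0.047), with an adjusted p of 0.915 by edgeR. This was the furthest below 0 among the 9, and the interval spans from 0.788-fold to 1.03-fold of the WT level. It was -0.054 when WT replicate 3 was left out and -0.070 when Top3b-KO replicate 1 was.

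Ly6c2 has a close copy beside it, Ly6c1, which is known from endothelial cells and T cells, so the assignment of reads between them matters for its value. Both coding sequences are 393 bases long without the stop codon (GENCODE M21, GRCm38, chromosome 15, minus strand), and they are 97.7% identical. The first 150 coding bases are shown, read 5′ to 3′, with the 6 bases that differ in capitals:
Ly6c2: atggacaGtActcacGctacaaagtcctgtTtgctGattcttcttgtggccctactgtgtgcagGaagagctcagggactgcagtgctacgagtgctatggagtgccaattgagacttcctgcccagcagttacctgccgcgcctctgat
Ly6c1: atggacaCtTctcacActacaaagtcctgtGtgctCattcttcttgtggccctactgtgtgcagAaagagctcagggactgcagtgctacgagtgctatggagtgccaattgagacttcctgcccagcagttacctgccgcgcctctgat
Of all 101-base windows of the Ly6c2 transcript, 15.5% also occur in Ly6c1. Ly6c1 was far lower in these libraries, between 3.02 and 5.26 CPM. Its log2 fold change was 0.32 (SE 0.192, adjusted p = 0.915 by edgeR). The sources used here do not say how reads matching both genes were counted, so both values are uncertain to that extent.

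Chil3 encodes a chitinase-like protein (Ym1) secreted by monocytes, neutrophil precursors and some macrophages. Its levels were 49.8, 91.5 and 77.9 CPM in WT and 41.7, 72.1 and 145 CPM in the knockout. The lowest and the highest of the 6 libraries were both knockout, replicates 1 and 3, which differed 3.49-fold. The log2 fold change was 0.20 with a wide error (SE 0.567, 95% interval -1.34 to 1.74, adjusted p = 0.981 by edgeR), and the value was -0.36 when Top3b-KO replicate 3 was left out and -0.021 when WT replicate 1 was. Its SD of log2 CPM over the 6 libraries, 0.641, exceeded that of 99.8% of the 11655 tested genes at 5 CPM or more. Its copy Chil4 had between 0 and 2 counts per library and was not tested.

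F13a1 encodes the catalytic subunit of coagulation factor XIII and is shared by classical monocytes, platelets and some resident macrophages. It had 25.3, 25.2 and 32.8 CPM in WT and 20.7, 28.5 and 30.25 CPM in the knockout, a log2 fold change of -0.085 (SE 0.141, adjusted p = 0.969 by edgeR). Without WT replicate 3 that value was 0.050, and without Top3b-KO replicate 1 it was 0.081. Of 9 megakaryocyte and platelet markers, 5 had no count in at least 1 library, among them the platelet chemokine genes Pf4 and Ppbp at 0.357 CPM or less. The other 4 were counted in every library and tested, and 0 passed: the integrin genes Itgb3, which macrophages share, and Itga2b averaged 85.6 and 7.30 CPM, and the platelet glycoprotein genes Gp1ba and Gp9 averaged 17.85 and 1.96 CPM. The 9 summed to 107 to 113.5 CPM in WT and 112 to 120 CPM in the knockout, and their part in the F13a1 counts was not tested.

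Fn1 encodes fibronectin, an extracellular matrix protein that monocytes and macrophages also make. It stood at 122, 112 and 99.8 CPM in WT and 82.3, 119 and 131 CPM in the knockout, with the lowest and highest values again in Top3b-KO replicates 1 and 3. The log2 fold change was -0.014 (SE 0.188, adjusted p = 0.998 by edgeR), which became 0.17 when Top3b-KO replicate 1 was left out and 0.052 when WT replicate 1 was. Fibroblasts are another common source of Fn1. Of their markers, Pdgfrb ran from 0.436 to 1.38 CPM, Col1a1 from 0.129 to 0.708 CPM and Col1a2 from 0.0628 to 0.517 CPM over the 6 libraries, Col3a1 and Pdgfra had at most 0.119 CPM, and Ccl19 had 0 counts in all. The list of 12 fibroblast and endothelial markers summed to 243 to 272 CPM in WT and 253 to 273 CPM in the knockout, nearly all of it Pecam1, and its part in the Fn1 counts was not tested.

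Ms4a6c, a membrane protein of the MS4A family, was the steadiest classical gene. Its levels were 31.2, 34.8 and 38.2 CPM in WT and 34.4, 34.7 and 36.5 CPM in the knockout, a log2 fold change of 0.015 (SE 0.089, adjusted p = 0.991 by edgeR). The knockout libraries all lay inside the WT range. In GENCODE M21 the gene overlaps a transcript on the opposite strand, BE692007, and 51.2% of the 101-base windows of Ms4a6c also occur there on the opposite strand. BE692007 was more abundant than Ms4a6c, at 113.6 ± 17.75 CPM in WT and 118 ± 6.11 CPM in the knockout (SD, n = 3). Both library kits in the labels keep the strand, but the sources used here do not say whether the counting used it, so reads of the pair cannot be told apart where they overlap. The relatives Ms4a6b and Ms4a6d share no such window with Ms4a6c. Ms4a6b, which T cells also express, had a log2 fold change of 0.17 (unadjusted p = 0.036, adjusted p = 0.879 by edgeR), and Ms4a6d, at 2.16 to 3.74 CPM, one of -0.39 (adjusted p = 0.915 by edgeR).

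Of the genes shared by all monocytes and by macrophages, Csf1r encodes the receptor for CSF1 and IL-34. It stood at 165, 183 and 161 CPM in WT and 170, 161 and 169 CPM in the knockout. All 6 libraries lay within 1.135-fold of each other. The log2 fold change was -0.026 (SE 0.067, adjusted p = 0.980 by edgeR), and its interval, 0.891-fold to 1.08-fold, was the narrowest of the 9. In the annotation, 16.8% of the Csf1r windows also occur on the opposite strand in Hmgxb3, a gene at 69.9 to 86.3 CPM.

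Lyz2 encodes lysozyme M, an antibacterial enzyme of monocytes, macrophages and neutrophils. It was the most abundant of the 9, at 362, 426 and 421 CPM in WT and 289, 421 and 516 CPM in the knockout. The knockout replicates enclosed the whole WT range. The log2 fold change was 0.016 (SE 0.236, 95% interval -0.61 to 0.64, adjusted p = 0.998 by edgeR), and its sign turned when Top3b-KO replicate 3 (-0.18), Top3b-KO replicate 2 (-0.0027) or WT replicate 1 (-0.059) was left out. The neighbouring gene Lyz1, the lysozyme of Paneth cells in the gut, matches the 444 coding bases of Lyz2 at 95.05% (chromosome 10, minus strand). The first 150 coding bases are shown with their 14 differing bases in capitals, since these are what lets a read be assigned:
Lyz2: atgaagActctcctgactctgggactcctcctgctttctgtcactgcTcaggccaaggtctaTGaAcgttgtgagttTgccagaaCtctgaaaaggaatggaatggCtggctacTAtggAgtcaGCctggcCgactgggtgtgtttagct
Lyz1: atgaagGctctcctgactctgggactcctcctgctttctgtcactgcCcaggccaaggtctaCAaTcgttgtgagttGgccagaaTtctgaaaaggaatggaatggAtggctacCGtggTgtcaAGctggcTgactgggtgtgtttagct
Lyz1 had between 7 and 17 counts per library and 1.81% of the Lyz2 windows also occur in it, so its share of the lysozyme counts was small in every library.

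Both patrolling genes had log2 fold changes below 0, and neither passed the test. Ace encodes angiotensin-converting enzyme, a peptidase of patrolling monocytes that endothelial cells also carry. It stood at 47.3, 56.4 and 44.3 CPM in WT and 48.0, 39.7 and 49.4 CPM in the knockout, a log2 fold change of -0.12 (SE 0.100, 95% interval -0.33 to 0.093, adjusted p = 0.9405 by edgeR). WT replicate 2 was highest and Top3b-KO replicate 2 lowest, and leaving out either brought the value to -0.010 and -0.015. Endothelial genes other than Pecam1, which leukocytes share, were low: Kdr had 2.64 ± 1.40 CPM in WT and 2.45 ± 0.556 CPM in the knockout (SD, n = 3), and Emcn at or below 0.197 CPM.

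Treml4, a TREM-like receptor of patrolling monocytes and splenic phagocytes, was the least abundant of the 9 by count. It stood at 23.25, 23.4 and 21.3 CPM in WT and 24.4, 22.7 and 19.6 CPM in the knockout. The highest and the lowest library were both knockout, in the reverse order to Chil3, Lyz2 and Fn1. The log2 fold change was -0.012 (SE 0.101, adjusted p = 0.995 by edgeR). No 101-base window of its transcript occurs in another gene.

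**Figure D2:**
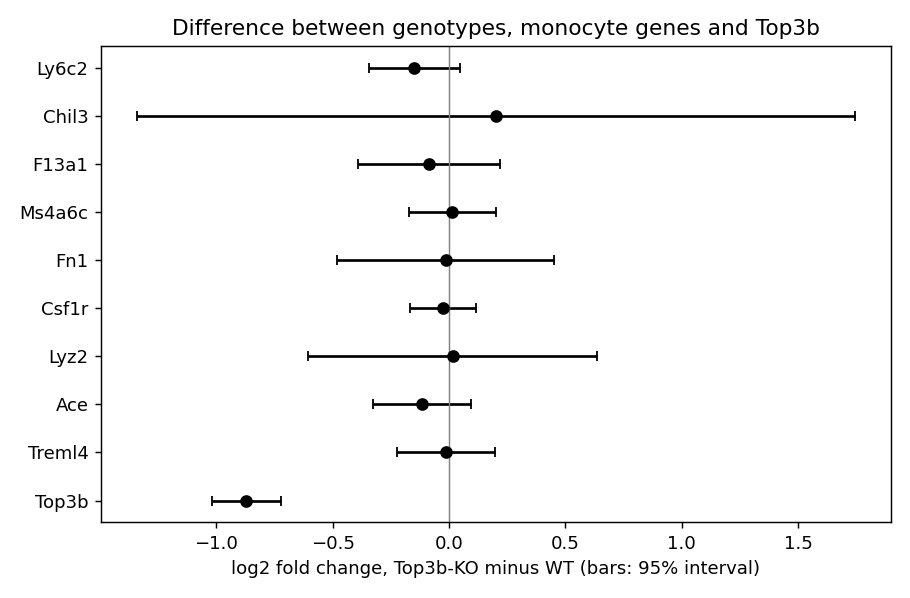
Log2 fold change (Top3b-KO minus WT) with its 95% interval from edgeR's quasi-likelihood fit, for the 9 monocyte genes and Top3b. All 9 intervals include 0, from -1.34 to 1.74 for Chil3 and from -0.17 to 0.11 for Csf1r, while Top3b lies at -0.87.

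The intervals set how large a difference these libraries allow. For 7 of the 9 genes they lay within 1.5-fold in either direction. The exceptions were Lyz2, at 0.657-fold to 1.56-fold, and Chil3, at 0.395-fold to 3.35-fold. Each interval is for 1 gene alone, without adjustment over all tested genes, so it does not mark the difference that the test could call. An adjusted p above the threshold does not show equal levels, and with 3 libraries a genotype real differences may go uncalled.

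Levels can be set against each other between genes only per length of transcript. Over all 6 libraries the order, in CPM per kilobase of the longest transcript annotated as protein-coding for each gene, was Lyz2 (308), Ly6c2 (52.6), Chil3 (51.8), Csf1r (35.8), Ms4a6c (19.0), Fn1 (13.4), Treml4 (12.9), Ace (9.69) and F13a1 (6.87). Lyz2 lay clear of the next gene, with 219.5 CPM per kilobase in its lowest library. Ly6c2 and Chil3, Chil3 and Csf1r, and Fn1 and Treml4 had overlapping ranges over libraries, and the first of each pair was the higher in 4 of 6 libraries, so these neighbours did not differ beyond their spread. Treml4 and Ace, and Ace and F13a1, also had overlapping ranges, but within a library the first was the higher in 6 of 6. Treml4 would stand at 26.8 CPM per kilobase, above Ms4a6c, if its transcript of 838 bases, which has the longest coding sequence, were used.

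The 9 genes did not all vary together. The library whose levels stood lowest was Top3b-KO replicate 1, the lowest of all 6 for 5 genes (Ly6c2, Chil3, F13a1, Fn1 and Lyz2). Top3b-KO replicate 3 was above the gene's own mean for 8 of the 9 genes, Treml4 being the exception. In log2 CPM relative to the gene mean, Chil3 ran from -0.81 in Top3b-KO replicate 1 to 0.99 in Top3b-KO replicate 3, Lyz2 from -0.47 to 0.37 and Fn1 from -0.41 to 0.26 in the same libraries. Csf1r stayed between -0.062 and 0.12 in all 6. The SD over libraries of Lyz2 exceeded that of 96.4% of genes at 5 CPM or more, that of Fn1 93.5% and that of F13a1 92.5%. Csf1r exceeded 16.9% and Ms4a6c 39.5%.

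**Figure D3:**
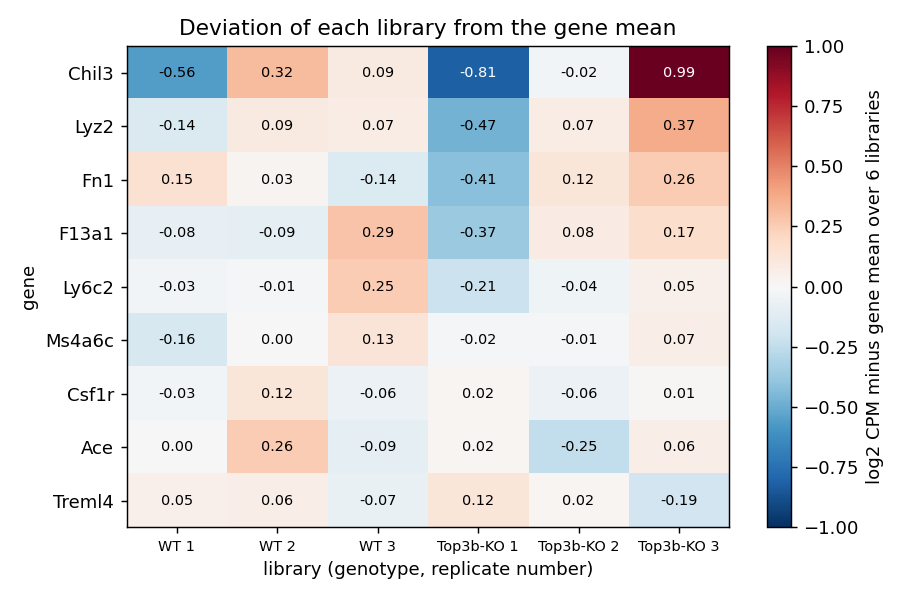
Log2 CPM of each gene in each library minus the gene's mean over the 6 libraries, as colour and number. Chil3, Lyz2, Fn1 and F13a1 are low in Top3b-KO replicate 1 and high in Top3b-KO replicate 3, Csf1r stays near 0, and Treml4 runs the other way, at 0.12 and -0.19 in those libraries.

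Correlations over the 6 libraries describe the same pattern. They rest on 6 points that share library depth and preparation. Of the 36 pairs among the 9 genes, 21 were positive, with a median Pearson r of 0.15. The highest was Chil3 with Lyz2 (r = 0.952, Spearman's rho 0.943), which kept r = 0.950 without the 2 libraries farthest from the median of Chil3. Csf1r followed Ace (r = 0.929, rho 0.943, r = 0.921 without its 2 farthest libraries) and not Lyz2 (r = 0.018). The lowest of the 36 was Lyz2 with Treml4 (r = -0.842, rho -0.600), which was -0.346 without the 2 farthest libraries and so rested on them. Treml4 was also negative with all 5 classical genes, at r from -0.84 (Chil3) to -0.568 (Fn1). Without the 2 libraries farthest from the median of the classical gene, r was -0.975 for Ms4a6c, -0.896 for Ly6c2 and -0.868 for Fn1. It was -0.867 for F13a1 and -0.198 for Chil3. The patrolling pair Ace and Treml4 had r = 0.096. Among Ly6c2, Chil3, F13a1, Ms4a6c, Fn1 and Lyz2, r ran from 0.313 to 0.952 apart from Ms4a6c with Fn1 (-0.147). This group was named after its values were seen. Without the 2 farthest libraries, Ms4a6c with Fn1 was at 0.72 and Chil3 with Fn1 at -0.571.

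By the rule of highest r among 10436 named genes at 5 CPM or more, the genes most like Ly6c2 were Ghdc (0.989), Mccc2 (0.986) and Stau2 (0.984). Those most like Csf1r were Fbxw9 (0.983), Nfkbie (0.981) and Cacna1e (0.981), and those most like Treml4 included Etv6 (0.984) and Ttn (0.980). Without the 2 libraries farthest from the median of Ly6c2, its 3 values were 0.863, 0.712 and 0.536. Those of Csf1r, without its own 2 farthest, were 0.948, 0.960 and 0.988, and those of Treml4 were 0.962 (Etv6) and 0.995 (Ttn). As the highest of 10436 values over 6 points, these r were high by the rule that picked them.

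The summed RNA of neutrophil markers moved with some of these genes. The 13 neutrophil markers (such as Ltf, Ngp, S100a8 and Ly6g) summed to 749, 1254 and 875 CPM in WT and 551, 754 and 1688 CPM in the knockout, and all 13 were detected in every library. None of the 13 passed the test, and the most abundant, the granule protein genes Ltf and Ngp, had log2 fold changes of 0.11 and 0.0006. Over the list the log2 fold changes ran from -0.95 to 0.45. The lowest was Elane, the elastase gene of granulocyte precursors, at 2.54 ± 0.640 CPM in WT and 1.31 ± 0.200 CPM in the knockout with no overlap (unadjusted p = 0.0019, adjusted p = 0.556 by edgeR), and the highest was Retnlg. The myeloperoxidase gene Mpo was at -0.39 (unadjusted p = 0.033, adjusted p = 0.879 by edgeR). Single markers did not all follow the sum, which was highest in Top3b-KO replicate 3. Ltf and Ngp were also highest there. Elane had 1.315 CPM in that library and 3.16 CPM in WT replicate 1, and Mpo had 8.50 and 10.7 CPM. Cxcr2 had 39.3 CPM in WT replicate 1 and 31.7 CPM in WT replicate 2, where the sum was higher. Elane, Retnlg, Mpo and Cxcr2 were chosen after their values were seen. Chil3 followed that sum in the same order over all 6 libraries (r = 0.953 on the log2 scale, rho 1, r = 0.863 without the 2 farthest libraries), and Lyz2 nearly so (r = 0.890, rho 0.943, r = 0.931). S100a8, a calcium-binding protein of neutrophils and monocytes, had r = 0.980 with Chil3. Fn1 (r = 0.676), F13a1 (0.539), Ace (0.472), Ly6c2 (0.45), Csf1r (0.405) and Ms4a6c (0.399) followed the sum less closely over all 6 libraries, a difference that was not tested. Without the 2 farthest libraries, F13a1 (r = 0.962) and Ly6c2 (0.919) stood above Chil3, and Fn1 was at 0.632 and Ms4a6c at 0.355. Ace turned to r = -0.479 and Csf1r to r = -0.910 without them. Treml4 ran opposite to the sum (r = -0.749, and -0.939 without the 2 farthest libraries). Neutrophils and their precursors are known to express Chil3 and Lyz2, and the part of neutrophil RNA in the spread of these genes was not tested.

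**Figure D4:**
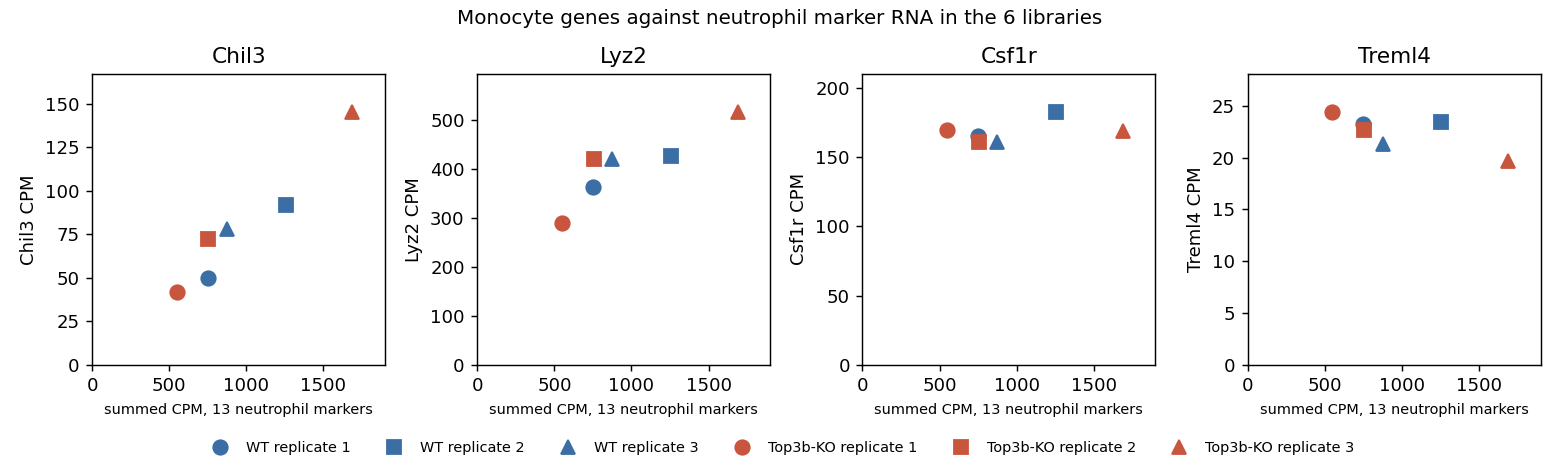
CPM of Chil3, Lyz2, Csf1r and Treml4 (vertical axes, linear from 0) against the summed CPM of 13 neutrophil markers (horizontal axis, linear from 0), 1 point per library, with colour for genotype and shape for replicate. Chil3 and Lyz2 are lowest at 551 CPM and highest at 1688 CPM of neutrophil markers, while Csf1r stays between 161 and 183 CPM.

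Summed markers of the other phagocytes of the spleen varied less between libraries than the neutrophil sum. The 12 red pulp macrophage markers summed to between 709 and 779 CPM in WT and between 628 and 731.5 CPM in the knockout, and the 11 conventional dendritic cell markers to between 835 and 887 CPM and between 837 and 866 CPM. Single markers varied more than these sums. Between lowest and highest library they spanned 1.19-fold (Axl) to 2.08-fold (Hmox1) in the macrophage list and 1.10-fold (Sirpa) to 1.79-fold (Esam) in the dendritic cell list. In both lists every marker was detected in all 6 libraries and 0 passed the test. Of the 12 red pulp macrophage markers, 10 lay below 0 (median log2 fold change -0.10), as did 9523 of all 18716 tested genes. Of the 12, 4 had an unadjusted p under 0.05 by edgeR, 1 of them above 0, against 5.52% of all tested genes. Red pulp macrophages, which recycle iron from old red cells, also carry Csf1r. Their iron exporter Slc40a1 had 163 ± 18.5 CPM in WT and 152 ± 8.34 CPM in the knockout, and the adhesion molecule Vcam1 at 122 ± 8.83 and 120.5 ± 12.3 CPM (SD, n = 3). Chosen after its values were seen, the heme oxygenase gene Hmox1 had 64.0 ± 11.8 and 43.4 ± 7.87 CPM (log2 fold change -0.55, unadjusted p = 0.0097, adjusted p = 0.776 by edgeR), with the knockout libraries wholly below WT. The complement gene C1qa (-0.24, adjusted p = 0.861 by edgeR) also lay wholly below, and the scavenger receptor gene Cd163 (0.21, adjusted p = 0.879 by edgeR) wholly above. Over all tested genes, the knockout lay wholly below WT in 5.63% and wholly above in 5.39%. The dendritic cell list's most abundant members were H2-DMb2 and Cd8a, which B and T cells share. The B and T cell markers summed to 2625, 2926 and 3001 CPM in WT and 2755, 2796 and 2845 CPM in the knockout. Ms4a6c had r = 0.900 with that sum (rho 0.943), which was 0.305 without the 2 farthest libraries. With the dendritic cell sum Ms4a6c had r = -0.898, and -0.673 without the 2 farthest. With the red pulp macrophage sum, r was -0.853 for Chil3 (-0.600 without the 2 farthest) and -0.737 for Lyz2 (-0.781). It was 0.804 for Treml4 (0.629) and -0.019 for Csf1r (0.530). These pairs were chosen after their values were seen. The part of these cells in the values of the 9 genes was not tested.

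Other genes of the monocyte programme were tested in the same fit, and their log2 fold changes ran from -0.31 to 0.22 in the classical and from -0.16 to 0.69 in the patrolling list, beside -0.15 to 0.20 for the 9. Of 18 other classical monocyte genes tested, 0 passed in either direction, 9 lay above 0 and 9 below, and their median log2 fold change was -0.016. CCR2, the receptor for exit from the marrow, is encoded by Ccr2, at 81.0 ± 14.6 CPM in WT and 81.5 ± 4.79 CPM in the knockout (SD, n = 3). Cybb, which encodes the catalytic subunit of the phagocyte oxidase and is also expressed by B cells, had a log2 fold change of 0.054. Plac8, a small protein of myeloid and B cells, had 92.3, 115 and 124 CPM in WT and 82.7, 98.8 and 86.0 CPM in the knockout. Its log2 fold change of -0.31 had an unadjusted p of 0.0084 and an adjusted p of 0.762 by edgeR, and the genotypes overlapped.

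Of 17 other patrolling monocyte genes, 0 passed in either direction, with 8 above 0, 9 below and a median of -0.0098. Nr4a1, the nuclear receptor on which these cells depend, had 105 ± 5.35 CPM in WT and 102 ± 12.8 CPM in the knockout (SD, n = 3). The fractalkine receptor gene Cx3cr1, chosen after its values were seen, was at 25.1 ± 2.80 and 26.4 ± 2.95 CPM. The most abundant members, Itgal, Spn and Pou2f2, had log2 fold changes of 0.022, 0.097 and -0.0098, and all 3 are lymphocyte genes as well. Of the 35 genes in both lists, 34 had genotype means within 1.5-fold. The exception was the fatty acid carrier gene Fabp4, at 1.695 ± 0.403 CPM in WT and 2.79 ± 0.603 CPM in the knockout (unadjusted p = 0.014, adjusted p = 0.829 by edgeR).

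**Figure D5:**
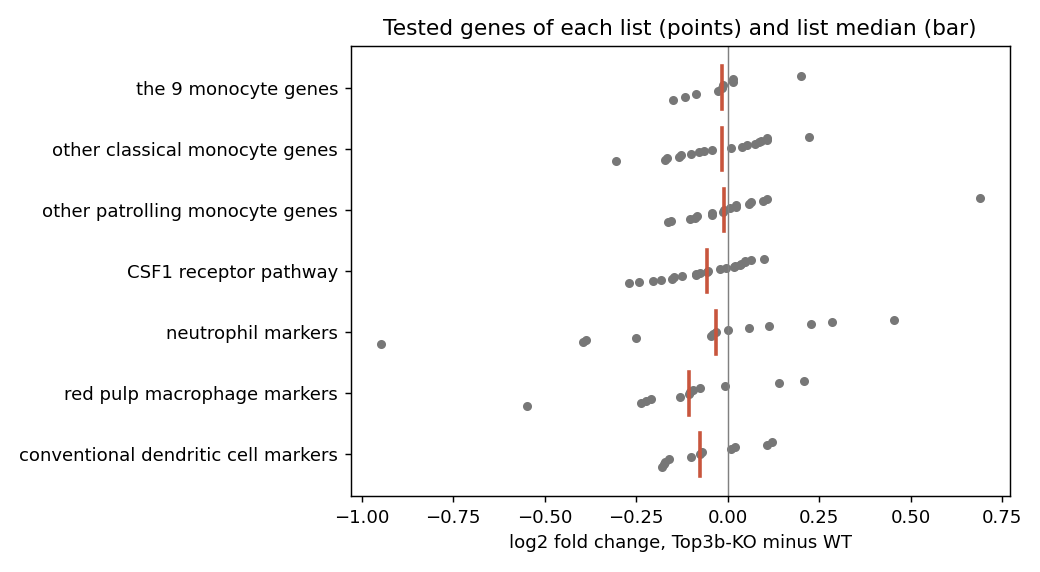
Log2 fold change (Top3b-KO minus WT) of the tested genes of each list, 1 grey point per gene, with the list median as a bar. The medians of the 9 genes (-0.014), of other classical (-0.016) and of other patrolling monocyte genes (-0.0098) lie near 0. Those of the other lists are -0.056 (the list labelled CSF1 receptor pathway, with other myeloid receptors and factors), -0.031 (neutrophil), -0.10 (red pulp macrophage) and -0.075 (conventional dendritic cell markers).

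CSF1R signals through adaptors and phosphatases and acts beside the myeloid transcription factors. The list named for this pathway is wider than CSF1R signalling. It also holds such transcription factors and receptor genes for other growth factors (Csf2ra, Csf2rb, Csf3r and Flt3). Of its 22 tested genes, 0 passed, 8 lay above 0 and 14 below, and the median was -0.056. In 4 of them the knockout lay wholly below WT, against 5.63% of all tested genes, and in 1 (the PI3-kinase subunit gene Pik3r1) wholly above. These 4, the GM-CSF receptor gene Csf2ra and the transcription factor genes Irf8, Cebpb and Cebpa, were named after their values were seen. Irf8, a transcription factor of monocytes, dendritic cells and B cells, stood at 302, 299 and 286 CPM in WT and 281, 259 and 261 CPM in the knockout (adjusted p = 0.879 by edgeR). The GM-CSF receptor gene Csf2ra had 55.8 ± 5.36 and 47.2 ± 2.80 CPM, Cebpb 18.4 ± 1.80 and 15.1 ± 1.48 CPM, and Cebpa 15.45 ± 0.716 and 14.5 ± 0.296 CPM in WT and Top3b-KO (SD, n = 3). The smallest adjusted p in the list was 0.790, for Csf2ra by edgeR. Csf1, the ligand, had a log2 fold change of 0.048, and Il34, the other ligand, had too few counts to test. The ubiquitin ligase gene Cbl, which turns the receptor over, and the phosphatase genes Ptpn6 and Inpp5d had log2 fold changes of 0.063, -0.021 and -0.057.

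Chemokines that attract monocytes were scarce. Of 8 listed genes for such ligands and for the growth factor GM-CSF, 3 could be tested and 0 passed, while Ccl7 and Ccl12 had no count in any library and Ccl2 was at or below 0.131 CPM. Ccl5, made mostly by T and natural killer cells in the spleen, had 63.3, 59.0 and 59.1 CPM in WT and 50.5, 47.1 and 55.0 CPM in the knockout. The knockout libraries lay below WT, with a log2 fold change of -0.26 (unadjusted p = 0.0041, adjusted p = 0.670 by edgeR). Ccl4 and Ccl3 had log2 fold changes of -0.21 and 0.065. Cx3cl1, the ligand of patrolling monocytes, had 0.236 and 0.235 CPM in WT and Top3b-KO and was not tested.

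Promoter sequence was looked at for the genes that ran most alike and most opposite over the libraries, Chil3 with Lyz2 and Lyz2 with Treml4. RefSeq start sites (GRCm38.p6) were matched by symbol for 7 of the 9 genes, and Csf1r and Fn1 had no entry. The 250 bases before the start are shown, 5′ to 3′ on the gene's strand, with matches to GAGGAA, the core of the motif of the myeloid factor PU.1, in capitals on either strand:
Chil3, chr3:106167565-106167814, minus strand: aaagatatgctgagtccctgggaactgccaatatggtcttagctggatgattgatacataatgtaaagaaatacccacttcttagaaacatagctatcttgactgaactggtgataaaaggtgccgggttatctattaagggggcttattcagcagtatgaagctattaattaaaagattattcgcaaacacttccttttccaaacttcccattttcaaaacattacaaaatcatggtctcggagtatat
Lyz2, chr10:117282273-117282522, minus strand: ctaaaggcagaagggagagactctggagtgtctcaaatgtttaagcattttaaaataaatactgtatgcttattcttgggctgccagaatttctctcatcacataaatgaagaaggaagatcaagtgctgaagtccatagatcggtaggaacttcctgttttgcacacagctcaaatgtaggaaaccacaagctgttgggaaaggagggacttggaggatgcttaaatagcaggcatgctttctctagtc
Treml4, chr17:48264045-48264294, plus strand: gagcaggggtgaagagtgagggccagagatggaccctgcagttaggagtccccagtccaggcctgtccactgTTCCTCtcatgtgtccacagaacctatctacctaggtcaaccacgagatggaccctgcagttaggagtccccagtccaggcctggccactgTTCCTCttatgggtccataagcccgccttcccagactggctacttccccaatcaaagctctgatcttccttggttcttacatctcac
Treml4 has 2 such matches and the other two have 0. Of the 7 genes, 4 (Ace, F13a1, Ly6c2 and Treml4) had a match in at least 1 start window, against 25.9% of 27025 genes. The C/EBP motif TTGCNNAA was in 0 of the 7, against 10.8% of genes. The 7 genes had 10 start windows in all, with more than 1 for Ace, F13a1 and Ly6c2. These are letter matches in short windows, and no binding was measured here.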

How the data were processed

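RNA was measured in 6 libraries of mouse splenocytes, 3 WT and 3 Top3b-KO, grouped by sample title. The authors deposited 1 table of expected counts by gene symbol, made from STAR alignments to mm39, per the submitters' processing notes. The sources used here do not name the counter, its strand setting or the annotation, and the labels give read lengths of both 101 and 150 bases. Counts were rounded, and none of the 9 genes had a fractional value. Genes were kept by filterByExpr and tested across all genes with edgeR 4.0.16 (R 4.3.3; TMM, robust quasi-likelihood F test, genotype only, two-sided), with Benjamini-Hochberg adjustment over 18716 genes and a threshold of 0.05. DESeq2 1.42.0 and limma-voom (limma 3.58.1) were alternatives. SEs and 95% intervals come from the F statistic and its degrees of freedom. The log2 CPM used for correlations and spreads had a prior count of 2. The fit was tested on simulated data.

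Total counts ran from 9941014 to 25473404. A level of 3 counts equals 0.119 to 0.304 CPM, which covers counting error only. Transcript lengths and 101-base windows came from GENCODE M21 on GRCm38, a build other than the authors', so no positions of counts are given. Same-numbered libraries correlated in their deviations at 0.156, -0.0067 and 0.0093, so the numbers were not taken as pairs. Named genes were the 9, Top3b, the listed copies, and from each list those that passed or otherwise the 4 (monocyte lists) or 2 (other cell types) most abundant. Some genes that these rules name are not reported here. Other genes in the text were chosen after their values were seen. The 9 genes and all lists were chosen with earlier results of these data known.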

Additional observations from a re-analysis of the deposited data

How the results depend on the processing

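None of the 14 alternatives called any of the 9 genes: 0 passed in each, with adjusted p from 0.439 up. Of 126 results for single genes under these alternatives, 107 kept their sign and 19, in 7 genes, changed it, 16 of them on leaving out a library; Ly6c2 and Ace stayed below 0 throughout. Leaving out a library moved log2 fold changes between -0.20 and -0.054 for Ly6c2, -0.19 and -0.010 for Ace, -0.36 and 0.56 for Chil3, -0.17 and 0.081 for F13a1, -0.060 and 0.087 for Ms4a6c, -0.14 and 0.17 for Fn1, -0.063 and 0.031 for Csf1r, -0.18 and 0.22 for Lyz2, and -0.076 and 0.057 for Treml4. By limma-voom Lyz2 was at -0.037 and Treml4 at 0.00059, and with the replicate block Lyz2 was at -0.017. The median of the 9 ran from -0.17 to 0.038. Over all genes, beside 2 past the threshold, 44 passed when low counts were not filtered, 7 by DESeq2, 1 by limma-voom, 1 with robust=FALSE and 41 with the replicate number as a block. Leaving out a library gave 1 to 32, where omitting WT replicate 3 gave 32, Top3b-KO replicate 1 gave 9, Top3b-KO replicate 3 gave 2, and any other library 1. For all of these the cause was not tested. Scaling moved the median of all genes to -0.015 at most. Precision is limited by 3 libraries a genotype and, in depth, by Top3b-KO replicate 3.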
